A study of Mus musculus with 9 samples.

Results

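RNA-seq was used to compare Dnmt1 knockout cells that express a catalytically inactive DNMT1 with knockout cells that express none, at day 4 of differentiation from mouse embryonic stem cells (ESCs). The comparison takes 2 of the 9 libraries of the study and covers every gene and repeat copy of the 2 expression tables, that is 15074 genes and 38385 copies. Each was described by the difference in log2(FPKM + 1), 1KO+1CI minus 1KO, where FPKM is the read count per kilobase of the feature, scaled to the size of the library. A difference of 1 is a 2-fold change of FPKM + 1, and features at or past 1 in either direction are counted below. Each side had 1 library, so no test was possible, no value has a replicate error, and all statements are about these 2 libraries. The question behind the comparison is what the DNMT1 protein does in differentiating cells without its methyltransferase activity.

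All groups are J1 ESCs or cells differentiated from them. The 1KO line is Dnmt1-/-. The 1KO+1CI line is a clone of the same Dnmt1-/- cells that also carries a transgene for the mutant DNMT1 C1229S (DNMT1CI), driven by the CAG promoter and linked through an IRES to a zeocin resistance gene. Both sides of the comparison thus lack endogenous DNMT1, and they differ by the transgene, the zeocin selection and the cloning. WT J1 cells at day 4 and the same lines at days 0 and 2 are given beside them. ESCs were grown with LIF on mitomycin C-treated embryonic fibroblasts, which were removed by plating before embryoid bodies formed, and the bodies then attached and grew in serum medium without LIF until day 4. RNA was enriched with oligo(dT) beads.

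DNMT1 copies DNA methylation to the new strand at replication, and a conserved cysteine in its catalytic domain forms the bond with the target base, so that its replacement by serine abolishes catalysis. The protein also binds UHRF1, PCNA and histone-modifying enzymes through other domains. Mouse ESCs that leave LIF pass through an epiblast-like state, from which the primitive streak (PS) arises, whereas primitive endoderm (PrE) is an earlier lineage that lays down basement membrane and matures into visceral and parietal endoderm. DNA methylation also silences endogenous retroviruses, of which the intracisternal A-particle (IAP) elements are the best known in the mouse.

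The altered codon is shown because its change to serine is the designed difference between DNMT1CI and the normal protein. In GENCODE release M21 on GRCm38 the codon for residue 1229 lies in exon 32 of Dnmt1, on the minus strand of chromosome 9, at chr9:20911813-20911815. The reference sequence follows, with 30 bases on each side and the cysteine codon in capitals.
Dnmt1 codon: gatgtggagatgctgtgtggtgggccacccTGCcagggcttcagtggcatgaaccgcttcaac

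Dnmt1 had the largest positive difference of all named genes. Its FPKM was 12.3 in 1KO and 158 in 1KO+1CI at day 4, a difference of 3.58 on the log2(FPKM + 1) scale, beside 48.5 in WT. The line labelled 1KO+1CI was thus above WT in the gene its transgene encodes, also at day 0 (315 against 74.0 FPKM) and at day 2 (129 against 80.4 FPKM). The tables give 1 value for the whole gene, so reads from the transgene and from what remains of the endogenous locus cannot be told apart.

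Library depth, recovered from the steps between low values, lay between 20100000 and 28000000 counted reads, with 22600000 in 1KO and 20100000 in 1KO+1CI at day 4 (the unit of a step, taken as 1 read, is not known from the tables). Scaling factors from the median ratio over genes were 1.00 and 0.997 in these 2 libraries. Medians of the difference per chromosome lay between −0.03 and 0.02, outside Y. Genes on chromosome 8 were lower in both 1KO (median −0.51 at day 4) and 1KO+1CI (−0.52) than in WT. This shift against WT is thus shared by both sides of the comparison. Whether it arose in WT or in the knockout line was not tested. WT values of chromosome 8 genes, such as Acta1, are to be read with this shift in mind.

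Between the 2 libraries 94 genes were higher in 1KO+1CI by at least 1, or 0.624% of 15074, and 44 genes were lower by at least 1, or 0.292%. Differences above zero were found in 7540 of the 15074 genes, and counts of higher list members below are to be read beside this. The median difference over all genes was 0.00, and 92.2% of genes lay within 0.5 of zero. The same contrast gave 27 higher (0.179%) and 36 lower genes (0.239%) at day 0, and 23 (0.153%) and 28 (0.186%) at day 2. Day 4 thus had the most genes past 1 in both directions, with many more of them higher than lower. Of the 94 higher genes, 72 were protein-coding, 14 were miRNA genes and 3 were small nucleolar RNA genes. Of the 44 lower genes, 26 were protein-coding, 8 were miRNA genes and 6 were small nucleolar RNA genes.

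The median FPKM of the 72 higher protein-coding genes was 3.80 in 1KO and 10.5 in 1KO+1CI, and that of the 26 lower ones was 10.2 and 3.96. Of the 94 higher genes 2 were also higher by at least 1 at day 0, and 3 at day 2, beside the 0.179% and 0.153% of all genes given above. These are larger shares than over all genes, from 2 and 3 genes, but Dnmt1, which the transgene encodes, is in both sets. The other genes were Snord83b at day 0, with 4 and 11 reads in 1KO and 1KO+1CI at day 4, and Lama1 and Bgn at day 2. Among the 44 lower genes the numbers lower by at least 1 were 0 and 1.

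Where the FPKM of a gene could be read as whole reads in every library, the counting error of the 2 libraries was computed as an exact 95% Clopper-Pearson interval of their ratio, which says nothing about variation between cultures. This was so for 18 of the higher and 11 of the lower protein-coding genes, and in all of them the interval lay on the same side of 1 as the difference. For short RNA genes it did so in 10 of 18 higher and 5 of 14 lower genes, which had between 4 and 54 reads in both libraries together. Over the 3838 genes with whole reads, the interval was above 1 in 15.1% and below 1 in 18.3%. The higher and lower genes were picked by the difference in the same reads. Intervals on the side of the difference are therefore largely set by that choice and give no separate support. Short RNA genes can also share reads with the transcript they lie in, and their values are uncertain.

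**Figure D1:**
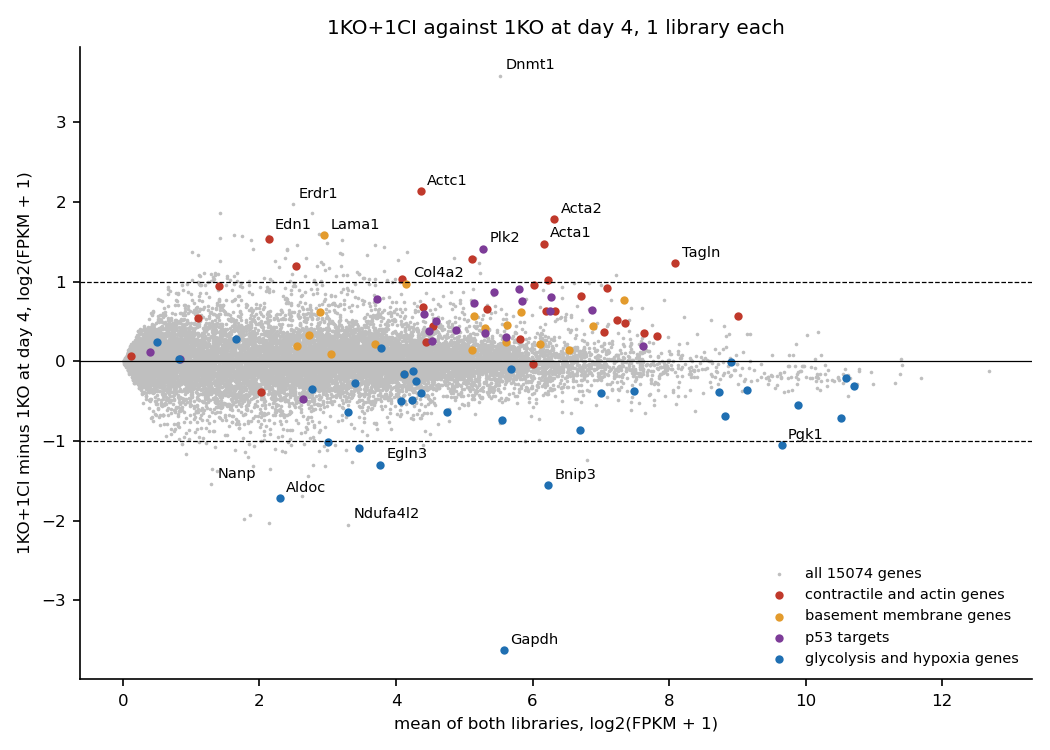
Difference between 1KO+1CI and 1KO at day 4, in log2(FPKM + 1), against the mean level of the 2 libraries on the same scale, with 1 point per gene (15074 genes, 1 library per group). Dashed lines mark 1 and −1. Contractile genes (red) reach 2.13 at Actc1, glycolysis and hypoxia genes (blue) reach −1.72 at Aldoc and −3.63 at Gapdh, and most genes lie near zero.

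Genes of the contractile and actin cytoskeleton were prominent among the higher genes. Actc1, which encodes the cardiac actin, had 2.45 (WT), 8.81 (1KO) and 42.1 FPKM (1KO+1CI), a difference of 2.13. Acta2, the smooth muscle actin, had 22.3, 42.0 and 147 FPKM in the same order, a difference of 1.78. In both genes 1KO lay above WT, and 1KO+1CI stood far above both. The skeletal muscle actin gene Acta1 (13.6, 42.2 and 119 FPKM, a difference of 1.47) had the same order. For the actin-binding protein genes Tagln (171, 177 and 417 FPKM, 1.23) and Cnn1 (25.2, 21.2 and 53.1 FPKM, 1.29), WT and 1KO were close and 1KO+1CI was high. A list of 30 such genes, put together after the values were seen, had 28 higher members, 9 of them by at least 1, and a median of 0.65 beside 0.00 for all genes. Its median was 0.02 at day 0 and 0.01 at day 2. The muscle filament gene Des had −0.38.

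Actc1 itself showed no such difference before day 4, with 1.72 in 1KO and 1.84 in 1KO+1CI at day 0, and 4.03 and 1.98 FPKM at day 2, when 1KO+1CI was the lower. Acta2 had 27.4 in 1KO and 36.6 FPKM in 1KO+1CI at day 2. Other genes of heart muscle were at low levels in both lines. On the list of blood, endothelial and cardiac genes, 8 of 13 measured members were higher with a median of 0.10. Myl7, an atrial myosin light chain gene, was at 1.67 in 1KO and 1.19 FPKM in 1KO+1CI, and Tnnt2, the cardiac troponin T gene, was at 0.22 and 0.17 FPKM.

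Several other groups of cell surface and matrix genes were higher. These lists too were assembled after the values were seen. Over all 15074 genes 7540 were higher, 94 of them by at least 1. Of 17 matrix remodelling genes, 15 were higher and 10 by at least 1 (median 1.06). They include the proteoglycan gene Bgn (4.47 in 1KO, 14.7 FPKM in 1KO+1CI), the thrombospondin gene Thbs1 (23.2 and 63.3 FPKM) and the urokinase receptor gene Plaur (17.5 and 44.2 FPKM). The matrix list was higher on the earlier days as well, with medians of 0.34 at day 0 and 0.54 at day 2, when 16 of 17 were higher. All 7 caveola genes were higher at day 4, 3 of them by at least 1, with a median of 0.97, after 0.01 at day 0 and 0.62 at day 2. Cav1, which encodes the main caveolar coat protein, had 2.52 in 1KO and 8.68 FPKM in 1KO+1CI.

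On a list of YAP and TEAD targets, all 19 measured members were higher (median 0.50). Among them F3 had 5.45 and 12.6 FPKM and Ankrd1 had 2.21 and 5.44 FPKM in 1KO and 1KO+1CI. On a list of immediate early and EGF-family genes, all 17 members were higher (median 0.54). These lists, and that of the annexins, were also put together with the values known. Their direction is therefore not independent evidence, and it does not speak for targets outside the lists. In the immediate early list, the transcription factor gene Egr1 had 5.00 and 11.6 FPKM, and the EGF receptor ligand gene Hbegf had 2.74 and 7.64 FPKM. Of 8 annexin genes 5 were higher, Anxa1 by 1.30 and Anxa3 by 1.23. The YAP-TEAD list had medians of 0.17 and 0.10 at days 0 and 2, and the immediate early list had −0.19 and 0.00.

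The secreted signal genes Edn1 and Ccl2 were among the 12 largest positive differences, as was Nkx2-9. Edn1, the endothelin 1 gene, had 1.85 (WT), 1.53 (1KO) and 6.54 FPKM (1KO+1CI), from 74 and 282 reads in the last 2 (ratio 4.27, 95% interval 3.30 to 5.60). The chemokine gene Ccl2 had 0.94 in 1KO and 4.75 FPKM in 1KO+1CI (17 and 77 reads, ratio 5.08, 2.98 to 9.17). Nkx2-9, a homeobox gene, had 0.56 and 3.55 FPKM (16 and 90 reads, ratio 6.31, 3.68 to 11.5) beside 2.42 in WT. For all 3 genes the counting intervals lay well above 1, but the genes were picked for their large differences in these same reads. Wnt6 was outside the 12, with 2.24 and 7.57 FPKM (105 and 316 reads, ratio 3.38, 2.70 to 4.25). Wnt4, also outside them and chosen after its value was seen, had 2.02 and 6.24 FPKM (175 and 482 reads, ratio 3.09, 2.59 to 3.69).

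Embryonic fibroblasts are known to express many contractile and matrix genes. Of 14 measured feeder fibroblast genes 12 were higher in 1KO+1CI and 5 by at least 1 (median 0.59), among them Fbln2 (1.25), Col1a1 (1.19) and S100a4 (1.04), besides Acta2 and Tagln, which are also on the contractile list. The summed FPKM of the other 12 was 24.1 (WT), 32.3 (1KO) and 61.8 (1KO+1CI) at day 4. At day 0 these sums were 168, 379 and 422, and at day 2 they were 26.2, 46.8 and 72.8. The sum of these 12 genes was thus lower at day 4 than at day 0 in each line, and higher in 1KO+1CI than in 1KO on each day. With Acta2 and Tagln, the sum in 1KO+1CI was 605 at day 0 and 626 at day 4, and in 1KO it was 568 and 251. The 2 members of the list that were lower at day 4 were the fibroblast surface marker genes Thy1 (4.66 in 1KO, 3.60 FPKM in 1KO+1CI) and Pdgfrb (0.73 and 0.66 FPKM). Col3a1 (0.78 and 1.29 FPKM) and Dcn (1.60 and 2.01 FPKM) were among the 12 higher members, at low levels in both libraries. The part of residual feeder cells in the contractile and matrix differences was not tested. In bulk RNA, more cells of a type and more RNA per cell cannot be told apart.

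**Figure D2:**
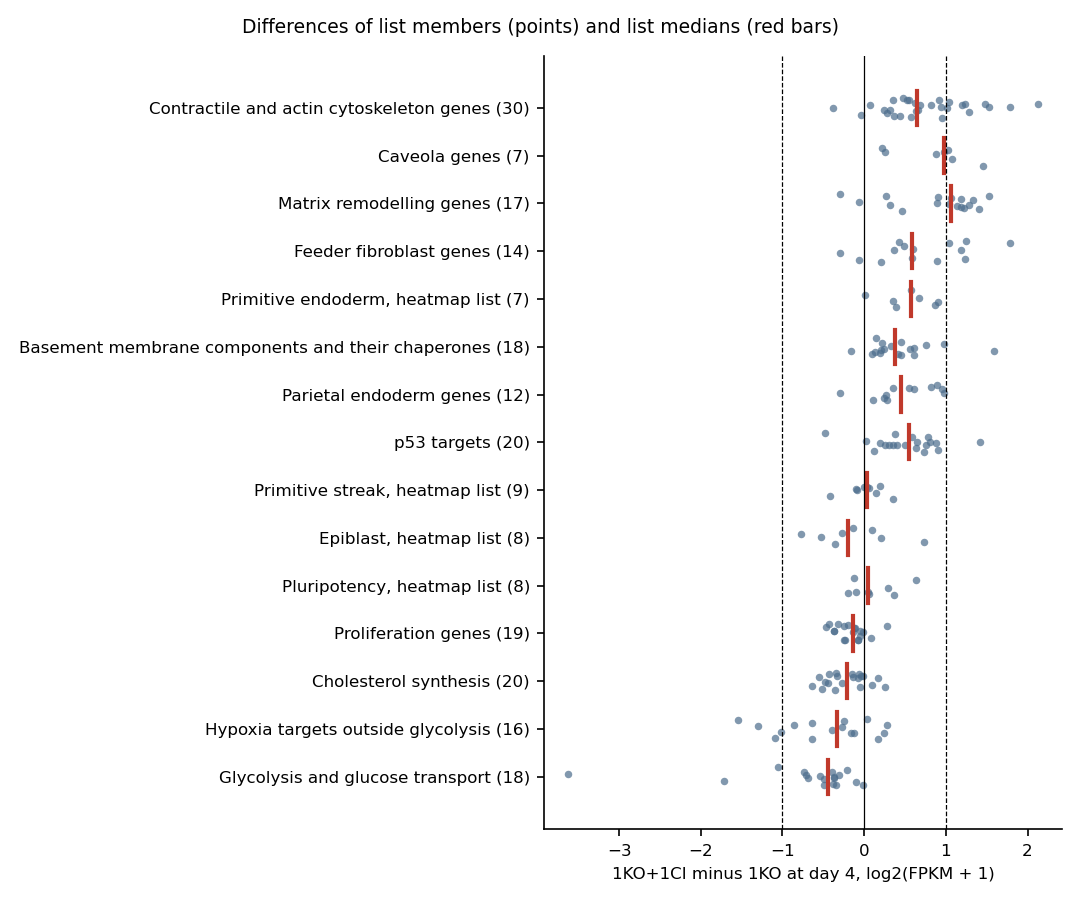
Differences of the measured members of 15 gene lists at day 4, in log2(FPKM + 1), 1KO+1CI minus 1KO, with 1 point per gene and a red bar at the list median (number of members in brackets, 1 library per group). Medians run from 1.06 for matrix remodelling genes to −0.44 for glycolysis genes, and the PS and pluripotency lists lie near zero. The contractile, caveola and matrix remodelling lists were assembled after the values were seen, so their medians are not comparable with those of the other lists.

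PrE genes were higher in 1KO+1CI than in 1KO, though none by 1. All 7 members of the PrE list were higher, with a median of 0.57. The study chose this list and the other marker lists of its heatmap on these samples, so that their direction is not independent evidence. Sox17, a transcription factor gene of the endoderm, had 0.305 (WT), 0.44 (1KO) and 1.63 FPKM (1KO+1CI). Gata4 had 1.56, 0.96 and 2.12 FPKM, and Gata6 had 0.19, 0.79 and 1.29 FPKM. These 3 regulators were at low levels in every library, and the addition of 1 before the logarithm makes their differences (0.87, 0.67 and 0.35) smaller than their ratios. Reads could be counted for Gata6 (57 and 83, ratio 1.63, 95% interval 1.15 to 2.33) and Sox7 (38 and 65, ratio 1.92, 1.27 to 2.94). Foxa2, needed in several endoderm lineages, was at 2.42 and 2.46 FPKM. The structural members were at higher levels, with Col4a1 at 24.5 and 46.7 FPKM (0.90) and Lamb1 at 41.9 and 62.7 FPKM (0.57).

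The basement membrane genes as a group were higher in 17 of 18 cases (median 0.37). Lama1, the laminin chain gene of the early basement membrane, had 1.11 (WT), 3.45 (1KO) and 12.3 FPKM (1KO+1CI), a difference of 1.58. It was the only member past 1, and its difference was 0.69 at day 0 and 1.29 at day 2. Col4a2 (0.97), Sparc (0.76) and Nid1 (0.61) followed. P4ha1, which hydroxylates collagen and is also a hypoxia target, had −0.16.

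Further endoderm lists differed from each other. Of 11 regulators and receptors of extraembryonic endoderm, 9 were higher (median 0.44), with the receptor genes Cubn at 1.71 and 3.08 FPKM, Fgfr2 at 4.41 and 6.84 FPKM and Pdgfra at 0.29 and 0.82 FPKM. Of 12 parietal endoderm genes, 11 were higher (median 0.45), with Vim, Srgn and Krt19 between 0.90 and 0.98. Vim and Krt19 are made by many other cell types as well. Visceral endoderm genes showed no shift as a list, with 6 of 11 higher and a median of 0.01. With other added constants, scalings or an FPKM minimum, this median lay between −0.05 and 0.07. Single members differed in both directions, from Soat2 (0.45) to Slc39a8 (−0.36). Soat2 had 7 reads in 1KO and 24 in 1KO+1CI (ratio 3.85, counting interval 1.61 to 10.6). Apoe was at 374 and 377 FPKM, and Apob was at 0.80 and 0.75 FPKM. The definitive endoderm list had a median of −0.23, with 3 of 8 higher.

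**Figure D3:**
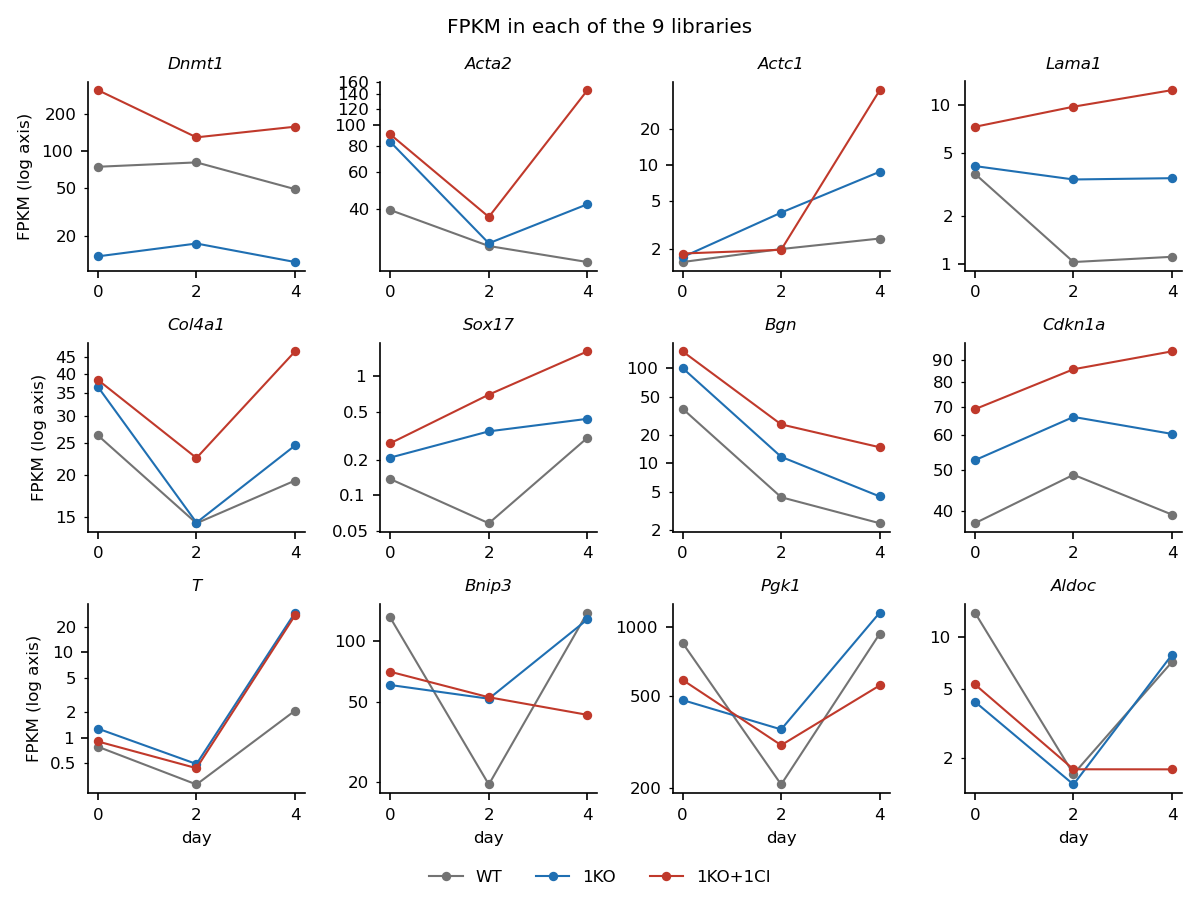
FPKM of 12 genes in each of the 9 libraries, on a log axis, by day and cell line (gray WT, blue 1KO, red 1KO+1CI, 1 library per point, lines only join the days). Actc1 and Acta2 part between 1KO and 1KO+1CI at day 4, Lama1 and Dnmt1 differ on all days, T is alike in both lines, and Bnip3, Pgk1 and Aldoc are low in 1KO+1CI at day 4 alone among the day 4 libraries.

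PS genes were at similar levels in the 2 knockout lines. T, the Brachyury gene and the defining PS marker, had 2.07 (WT), 29.2 (1KO) and 27.2 FPKM (1KO+1CI). Mixl1 had 0.58, 6.50 and 6.66 FPKM, and Eomes had 8.51, 29.9 and 38.5 FPKM. In all 3 the knockout lines were above WT. They were close to each other in T and Mixl1, whereas Eomes had the highest difference of the list (0.36). The list had 5 of 9 members higher in 1KO+1CI than in 1KO and a median of 0.03, while its medians against WT were 1.70 in 1KO and 1.84 in 1KO+1CI. The lowest difference was that of the growth factor gene Fgf8 (84.5 and 63.0 FPKM, −0.42), and Snai1, Gsc2, Fst, Nodal and Evx1 lay between −0.09 and 0.19.

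Epiblast genes leaned lower, with 3 of 8 higher and a median of −0.20. Otx2, a homeobox gene of the epiblast and anterior neuroectoderm, had 58.6 (WT), 59.4 (1KO) and 34.3 FPKM (1KO+1CI) (−0.77). The de novo methyltransferase gene Dnmt3b had 390, 328 and 226 FPKM (−0.53), and Fgf5 had 48.3, 86.4 and 67.0 FPKM (−0.36). Wnt3 went the other way (3.33, 8.44 and 14.7 FPKM, 0.73). Sox3 (−0.27), Slc7a3 (−0.14), Sox4 (0.09) and Pou3f1 (0.20) differed less. The pluripotency list had a median of 0.05, with 5 of 8 higher. Klf4 (0.63), Tbx3 (0.37) and Esrrb (0.29) were the highest, whereas Pou5f1 (745 and 650 FPKM) and Nanog (171 and 157 FPKM) were slightly lower and Sox2, Zfp42 and Dppa3 lay between −0.10 and 0.06.

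The list of epigenetic regulators, on which Dnmt3b does not stand, had 13 measured genes. Of these 3 were higher, Dnmt1 among them, and the other differences lay between −0.22 and 0.38. The cofactor gene Dnmt3l (41.0 and 53.7 FPKM, 0.38) and the dioxygenase gene Tet3 (2.24 and 2.87 FPKM, 0.25) were on the higher side. Dnmt3a (−0.22), Tet2 (−0.21) and Hdac2 (−0.20) were the lowest, and Tet1, Uhrf1, Hdac1, Ehmt1, Ehmt2, Kdm3a and Kdm3b lay between −0.13 and −0.02. The 22 known repressors of endogenous retroviruses had a median of −0.05 with 7 higher. Zfp809 (10.7 and 14.6 FPKM, 0.41) was the highest and the chromatin assembly gene Chaf1b (34.5 and 26.1 FPKM, −0.39) was the lowest.

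Genes activated by p53, which responds to DNA damage and other stress, were higher in 19 of 20 cases, with a median of 0.55. Plk2, a kinase gene, had 28.8 (WT), 22.8 (1KO) and 62.4 FPKM (1KO+1CI) (1.41). Mdm2, which encodes the ligase that degrades p53, had 54.6, 39.7 and 75.3 FPKM (0.91). Perp had 28.7, 30.9 and 57.4 FPKM (0.87), and the cell cycle inhibitor gene Cdkn1a had 39.3, 60.5 and 94.2 FPKM (0.63). In all 4 the 1KO+1CI library was the highest of the 3. The median of this list at days 0 and 2 was 0.34 and 0.24. Against WT at day 4 it was −0.07 in 1KO and 0.42 in 1KO+1CI. Sesn1 was the exception (6.35 and 4.28 FPKM, −0.48). Proliferation genes were higher in 2 of 19 cases, with a median of −0.13, from Cdc20 (0.28) to Ccnb2 (−0.46).

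Signalling lists were mixed. Of 17 genes of the BMP pathway and its targets 13 were higher (median 0.20), with the target genes Id2 at 24.4 and 54.0 FPKM (1.11), Msx2 at 0.69 and 2.36 FPKM (34 and 103 reads, ratio 3.40, 95% interval 2.29 to 5.17) and Id1 at 21.3 and 35.6 FPKM (0.72), and the antagonist gene Grem1 at 1.59 and 4.02 FPKM (0.95). The ligand gene Bmp4 was at 4.90 and 4.46 FPKM. In the FGF-ERK list 15 of 22 were higher (median 0.15), and Egr1 alone was past 1. Wnt genes had 12 of 20 higher (median 0.07), with the target gene Sp5 at 15.6 and 25.6 FPKM and Axin2 at 11.7 and 13.3 FPKM. The Nodal list had a median of −0.01, led in the lower direction by the coreceptor gene Tdgf1 (−0.40), and the retinoic acid and Hox list had 0.03.

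Other lineage lists had no member past 1 except Actc1. Medians were 0.28 for lateral and extraembryonic mesoderm (9 of 12 higher), −0.03 for nascent mesoderm (4 of 9), 0.09 for neural genes (9 of 12), and 0.27 for trophoblast genes (9 of 11), whose median was −0.42 at day 0. Epithelial and mesenchymal junction genes had 14 of 21 higher and a median of 0.18. In this last list the keratin gene Krt8 had 90.8 and 177 FPKM at day 4 (0.96), and its difference at day 0 was −1.44. Cdh1, the E-cadherin gene, was at 187 and 213 FPKM.

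The lower genes at day 4 were led by genes of the response to low oxygen. Bnip3, a mitophagy receptor gene, had 138 (WT), 128 (1KO) and 42.9 FPKM (1KO+1CI) (−1.55). Ndufa4l2, which encodes a subunit exchanged in respiratory complexes at low oxygen, had 8.66, 18.9 and 3.82 FPKM, from 412 and 74 reads in the last 2 (ratio 0.20, 95% interval 0.16 to 0.26). Egln3, a HIF prolyl hydroxylase gene, had 16.1, 20.4 and 7.70 FPKM (−1.30). In all 3 the 1KO+1CI library was the lowest at day 4, below WT as well. Of 16 hypoxia targets outside glycolysis 12 were lower, 4 by at least 1 (median −0.34). Besides Bnip3 and Egln3 these were Ndrg1 (15.1 and 6.56 FPKM) and Ankrd37 (10.4 and 4.63 FPKM, 211 and 84 reads, ratio 0.45, 0.34 to 0.58). The members Adm (0.28), Car9 (0.24) and Pfkfb3 (0.17) were not lower. Mgarp, another of the 12 lowest, which encodes a mitochondrial protein, had 9.80 and 2.96 FPKM (−1.45), and the GTPase gene Rab20 had 3.20 and 0.615 FPKM.

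All 18 glycolysis and glucose transport genes were lower, with a median of −0.44. The aldolase gene Aldoc had 7.22 (WT), 7.96 (1KO) and 1.72 FPKM (1KO+1CI) (−1.72). Pgk1, an enzyme gene at far higher levels, had 935, 1155 and 557 FPKM (−1.05), and Ldha, the lactate dehydrogenase A gene, had 1706, 1878 and 1150 FPKM (−0.71). In all 3 the 1KO+1CI library was the lowest at day 4. The smallest difference was that of the glucose transporter gene Slc2a3 (481 and 476 FPKM, −0.01). The list had medians of 0.10 at day 0 and −0.05 at day 2. Against WT at day 4 its median was 0.10 in 1KO and −0.31 in 1KO+1CI.

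Gapdh is listed with the lowest difference of all, −3.63, but its values differ from those of the other enzymes. They were 7.85 (WT), 168 (1KO) and 12.7 FPKM (1KO+1CI) at day 4, all far below those of Ldha and Pgk1, and 1KO at day 4 stood apart. Gapdh has many near-identical processed pseudogenes that share its reads, so its value is uncertain. Other metabolic lists leaned the same way by less. Of 20 cholesterol synthesis genes 17 were lower (median −0.21). Of 84 cytosolic ribosomal protein genes 76 were lower (median −0.19) and of 82 genes for oxidative phosphorylation subunits 69 were lower (median −0.12), 2 lists added after the values were seen. Genes of ER stress and the amino acid response had 9 of 18 higher and a median of −0.01.

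Promoter sequences of the most different members of the contractile list (Actc1, Acta1 and Fhl2) and of the oxygen and glycolysis lists without Gapdh (Aldoc, Bnip3 and Egln3) are shown, each chosen as the 3 with the greatest difference whose promoter holds the motif concerned. The CArG box, which serum response factor binds, and ACGTG, the core that HIF binds, were searched on both strands. They were chosen after the values were seen. Sequences are from RefSeq (GRCm38.p6), run from 250 bases before the first listed start site to 50 bases after the start, 5′ to 3′ on the strand of the gene, and have the motif in capitals.
Actc1, chr2:114052826-114053125, minus strand: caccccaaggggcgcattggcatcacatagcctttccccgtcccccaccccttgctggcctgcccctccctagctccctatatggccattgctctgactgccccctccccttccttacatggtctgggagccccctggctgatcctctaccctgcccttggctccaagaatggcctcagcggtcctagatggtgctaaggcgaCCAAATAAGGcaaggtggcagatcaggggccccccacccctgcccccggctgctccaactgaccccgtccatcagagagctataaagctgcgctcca
Acta1, chr8:123894726-123895025, minus strand: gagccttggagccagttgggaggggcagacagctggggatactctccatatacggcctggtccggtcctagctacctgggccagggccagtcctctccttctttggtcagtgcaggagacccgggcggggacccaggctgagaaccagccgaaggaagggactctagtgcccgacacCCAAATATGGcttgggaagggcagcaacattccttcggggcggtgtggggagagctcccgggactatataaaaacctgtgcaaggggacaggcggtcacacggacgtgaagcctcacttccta
Fhl2, chr1:43196712-43197011, minus strand: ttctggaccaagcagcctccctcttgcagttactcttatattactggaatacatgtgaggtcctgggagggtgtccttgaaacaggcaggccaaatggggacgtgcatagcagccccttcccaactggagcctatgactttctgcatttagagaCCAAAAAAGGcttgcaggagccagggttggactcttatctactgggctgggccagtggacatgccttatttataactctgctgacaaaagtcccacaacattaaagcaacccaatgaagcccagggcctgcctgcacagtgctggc
Aldoc, chr11:78322823-78323122, plus strand: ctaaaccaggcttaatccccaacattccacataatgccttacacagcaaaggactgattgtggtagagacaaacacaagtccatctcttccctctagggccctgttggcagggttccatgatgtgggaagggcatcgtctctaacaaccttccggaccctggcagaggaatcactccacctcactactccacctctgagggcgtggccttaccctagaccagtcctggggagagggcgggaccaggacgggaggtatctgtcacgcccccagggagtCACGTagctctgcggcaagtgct
Bnip3, chr7:138909457-138909756, minus strand: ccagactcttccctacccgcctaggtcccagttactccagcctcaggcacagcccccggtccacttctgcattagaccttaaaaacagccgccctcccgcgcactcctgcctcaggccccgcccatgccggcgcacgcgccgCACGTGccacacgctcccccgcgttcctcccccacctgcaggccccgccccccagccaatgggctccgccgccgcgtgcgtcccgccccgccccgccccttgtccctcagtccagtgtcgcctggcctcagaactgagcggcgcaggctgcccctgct
Egln3, chr12:54203825-54204124, minus strand: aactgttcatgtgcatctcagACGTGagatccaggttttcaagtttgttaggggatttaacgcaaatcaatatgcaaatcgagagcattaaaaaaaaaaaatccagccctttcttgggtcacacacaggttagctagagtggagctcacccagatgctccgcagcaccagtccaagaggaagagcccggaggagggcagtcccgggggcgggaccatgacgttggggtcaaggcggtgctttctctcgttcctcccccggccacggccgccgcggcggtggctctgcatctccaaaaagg

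The CArG box starts 47 bases before the start site of Actc1, 73 before that of Acta1 and 96 before that of Fhl2. It was found in 8 of 26 promoters of contractile genes, in 4 of 51 promoters of the higher genes, in 0 of 21 of the lower genes and in 1.32% of all 11125 promoters of measured protein-coding genes. ACGTG was found in 13 of 21 promoters of lower genes (61.9%), in 18 of 51 of higher genes (35.3%), in 9 of 14 of hypoxia targets, in 8 of 17 of glycolysis genes and in 25.2% of all. In Bnip3 the match is palindromic and is read on both strands. The GATA motif AGATAA was in 6.07% of all promoters and in 5 of the 51 promoters of higher genes. For the SOX motif ACAAAG these were 13.5% and 5, and for the T-box motif AGGTGTGA they were 0.854% and 0. These are matches of letters and not binding sites. The contractile list and the CArG box were both chosen after the values were seen, so the share in that list is not independent evidence. ACGTG was also chosen after the values were seen. The lower genes include members of the hypoxia and glycolysis lists, such as Bnip3, Egln3 and Aldoc, so these groups overlap. A HIF core is also to be looked for in hypoxia targets by their definition. The shares of ACGTG are therefore not independent evidence either. The ratio of observed to expected CpG had a median of 0.513 in promoters of higher genes, 0.647 in those of lower genes and 0.752 in all.

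Lists of genes linked to loss of DNA methylation had small median differences, apart from the genes of the 2-cell stage. Of 21 germline genes 14 were lower in 1KO+1CI (median −0.18), and Sycp3, a meiotic chromosome axis gene, had 16.2 (WT), 11.4 (1KO) and 4.98 FPKM (1KO+1CI) (288 and 112 reads, ratio 0.44, 95% interval 0.35 to 0.54). Maternally expressed imprinted genes had a median of −0.17 (5 of 14 higher) and paternally expressed ones 0.08 (15 of 22 higher). H19, a maternally expressed noncoding RNA gene, had 7.98 (WT), 184 (1KO) and 190 FPKM (1KO+1CI). Peg10 (184 and 316 FPKM, 0.77), Igf2 (3.30 and 6.11 FPKM, 0.73), Plagl1 (0.65) and Peg3 (76.5 and 115 FPKM, 0.59) were the highest paternally expressed genes. Interferon response genes had a median of −0.02 (7 of 15 higher). Genes of the 2-cell stage were lower in 7 of 8 cases (median −0.42), at levels between 0.27 FPKM (Tdpoz4 in 1KO+1CI) and 3.15 FPKM (Zscan4d in 1KO), and had been higher at day 0 (median 0.41).

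The remaining named genes rest on few reads. Among the 12 highest, the miRNA gene Mir6516 had 1 and 9 reads in 1KO and 1KO+1CI, Mir8093 had 8 and 33, Mir7652 had 4 and 13 and Mascrna had 1 and 5. Erdr1 (1.83 and 10.1 FPKM) is in the pseudoautosomal region and its reads are uncertain. Among the 12 lowest, Mir684-1 had 15 and 2 reads, Mir7670 had 9 and 1, Snord110 had 8 and 1 and Mir7090 had 14 and 3. The interval of the ratio included 1 for Mascrna and Snord110. The protein-coding genes among the lowest were better covered, with Nanp, a sialic acid phosphatase gene, at 99 and 12 reads (ratio 0.14, 95% interval 0.07 to 0.25), and Tjp3, a tight junction gene, at 6.09 and 1.78 FPKM. The miRNA genes of the miR-290 to miR-295 cluster, which ESCs transcribe as 1 unit, had 6 of 8 higher (a list added after the values were seen), with Mir294 at 9 and 23 reads. The 324 Zfp genes with high numbers, also added, had a median of −0.02.

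Among repeats, 1302 copies were higher in 1KO+1CI by at least 1, or 3.39% of 38385, and 1614 were lower by at least 1, or 4.2%. The median difference was 0.01. Most of these copies are short elements with few reads. SINEs, simple repeats and low-complexity sequence made up 1074 of the 1302 and 1342 of the 1614, and the median number of reads in both libraries together was 12 and 13. The counting interval lay on the side of the difference in 592 of 1254 higher and 663 of 1554 lower copies with whole reads, beside 4.75% above 1 and 4.07% below 1 over all 31772 such copies. The higher and lower copies were picked by the difference in the same reads, which raises these numbers. Of the 1302 higher copies 104 were also higher by at least 1 at day 0 and 93 at day 2, where 4.57% and 3.8% of all copies were. Of the 1614 lower copies 82 and 116 were also lower by at least 1, beside 3.69% and 3.77% of all copies. Across copies, Spearman's rho between the differences of days 2 and 4 was 0.02, a value across copies that share libraries within a day and differ greatly in depth.

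IAPEz-int, the internal part of the main IAP family, was higher in 1KO+1CI in 421 of its 426 copies. Its copies had a mean FPKM of 0.56 (WT), 17.1 (1KO) and 23.4 (1KO+1CI) at day 4. On the log2(FPKM + 1) scale the medians of its copies were 0.43, 4.15 and 4.60, so that the 2 knockout lines differed by 0.45 and both stood far above WT. Differences of single copies ran from −0.16 to 0.87 and none reached 1. In the 62 copies with whole reads, 22295 reads in 1KO stood against 26565 in 1KO+1CI, a ratio of 1.33 (95% interval 1.31 to 1.36). The interval of 52 of these copies was above 1 and that of 0 copies below, beside 4.75% and 4.07% of all copies with whole reads. Of the summed FPKM of repeats, the family took 0.0807% (WT), 2.36% (1KO) and 3.19% (1KO+1CI). Copies of a family are near-identical and share reads, so they are not replicates of each other and the intervals can be too narrow.

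At the earlier days the order was another. At day 0 the mean over IAPEz-int copies was 0.73 (WT), 7.14 (1KO) and 2.26 FPKM (1KO+1CI), and 0 of 426 copies were higher in 1KO+1CI than in 1KO (difference of medians −1.40). At day 2 it was 0.79, 4.70 and 4.62 FPKM, with 189 of 426 copies higher (−0.02). The 1KO+1CI library was thus below 1KO at day 0, level with it at day 2 and above it at day 4. These 3 contrasts use different libraries, and the difference between days was not tested.

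**Figure D4:**
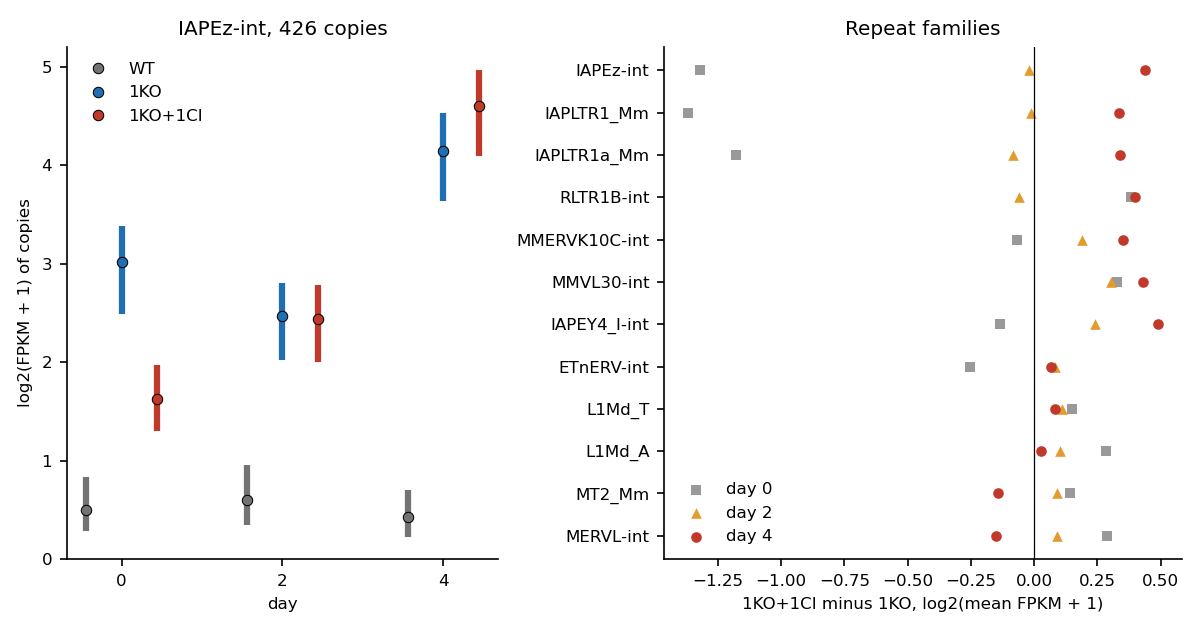
Left, median (point) and quartiles (bar) over 426 IAPEz-int copies of log2(FPKM + 1) in each of the 9 libraries, by day and line. Right, difference in log2(mean FPKM + 1), 1KO+1CI minus 1KO, for 12 repeat families at days 0, 2 and 4. IAPEz-int and its long terminal repeats are below zero at day 0 and above zero at day 4, and L1 families lie near zero at day 4.

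Other IAP families were mixed. The long terminal repeats IAPLTR1_Mm (17.3 and 22.1 mean FPKM, 71 of 76 copies higher) and IAPLTR1a_Mm (5.32 and 6.99 mean FPKM, 21 of 25 copies higher) had differences of 0.33 and 0.34 in log2(mean FPKM + 1), and the same 2 families had −1.37 and −1.18 at day 0. IAPEY4_I-int, a related family on the list of the 6 highest, had 18 of 20 copies higher (0.49). Families with small differences were IAPLTR2a (7 of 11 copies higher, 0.14), IAPEY3-int (8 of 13, 0.04) and IAP-d-int (10 of 17, 0.03), and IAP1-MM_I-int (3 of 7, −0.10) and IAPEY_LTR (2 of 6, −0.24) were lower. In some families WT was above both knockout lines or between them, as in IAPEY4_LTR (3.18 in WT, 2.55 and 3.42 mean FPKM). Outside IAPEz-int, 184 of 240 copies of IAP families were higher, with a median of 0.24. The 2476 copies of other ERVK families gave 1274 higher, or 51.5%, and a median of 0.01, beside 50.4% of all copies.

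No family with at least 10 copies reached a difference of 1 in log2(mean FPKM + 1). Of 371 such families 183 were higher, 24 of them by at least 0.25, and 15 were lower by at least 0.25. The 6 highest were the simple repeat (CAGG)n (0.59), IAPEY4_I-int, (TCCC)n (0.48), IAPEz-int (0.44 on this measure), MMVL30-int (0.43) and RLTR1B-int (0.40). RLTR1B-int had 34.3 and 45.6 mean FPKM in 1KO and 1KO+1CI, with 42 of 49 copies higher, and MMERVK10C-int had 1.41 and 2.07 mean FPKM with 66 of 92 copies higher (0.35). ETnERV-int (0.07) and RLTR4_Mm (0.10) hardly differed, and GSAT_MM, the major satellite, had only 2 copies (0.32). The 6 lowest were ERVL-B4-int (−0.55), (CAAAAA)n (−0.37), RMER17C-int (−0.36), (CGTG)n (−0.30), L1MD1 (−0.30) and Lx7 (−0.29), of which 4 had 10 to 12 copies.

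MERVL-int and its long terminal repeat MT2_Mm, which are active in the 2-cell embryo, were lower in 1KO+1CI. MERVL-int had 3.23 mean FPKM in 1KO and 2.81 in 1KO+1CI, with 41 of 169 copies higher (ratio from reads 0.87, 95% interval 0.85 to 0.89). MT2_Mm had 1.98 and 1.70 mean FPKM with 51 of 145 copies higher. Both had been on the higher side at day 0 (0.29 and 0.14), as had the genes of the 2-cell stage. At day 0 the median copy difference was also above zero over all copies (0.08) and over the ERVL family, to which both belong (0.15). At day 4 these medians were 0.01 and −0.08. Young L1 elements were at low FPKM, where the added 1 makes differences small. L1Md_T had 0.44 in 1KO and 0.52 mean FPKM in 1KO+1CI (0.08), with 938 of 1477 copies higher. In its 849 copies with whole reads the ratio was 1.185 (95% interval 1.166 to 1.205). The interval of 135 copies was above 1 and that of 15 below, beside 4.75% and 4.07% of all copies with whole reads. L1Md_A (0.03, ratio 1.09, 1.06 to 1.12) and L1Md_Gf (0.02, ratio 1.07, 0.96 to 1.19) had smaller ratios, and L1Md_F2 had 0.92 (0.87 to 0.98). These pooled intervals cover counting error of 1 library per side only. Copies that share reads are not replicates, so the intervals can be too narrow.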

How the data were processed

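RNA-seq values of 9 libraries were used, 1 per line (WT, 1KO and 1KO+1CI) and day (0, 2 and 4). The authors deposited FPKM values of genes and of single repeat copies, made after trimming with Trim Galore and mapping to mm10 with HISAT2, by counting and normalization in HOMER. Tool versions, gene annotation, strandedness and the treatment of multi-mapping reads were not given in the sources used here. A gene with several transcripts has 1 FPKM value, which appears from its decimals to be a mean over them. Of 15095 gene entries 21 were left out, 1 named 0 and 20 bearing dates in place of symbols. No table holds a 0 (lowest FPKM 0.0013 for genes), so features missing from any library are not analysed here. The library column of the transgenic line was matched by genotype and day. The number it carries is not explained.

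Differences were taken in log2(FPKM + 1). With 1 library per group no test was run. Whole reads were recovered from FPKM steps within 0.15 of a whole number, for 98.5% of 32249 copies tried and for 3838 genes listed with at most 3 decimals, and depth came from genes with 1 transcript. Ratios of reads have exact 95% Clopper-Pearson intervals, which cover counting error only. The calculations were tested on simulated counts.

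The comparison and the gene lists were chosen with earlier results of these data known. Genes named are the 12 highest and 12 lowest that reached 1 FPKM in either day 4 library, all members of the study's marker and epigenetic lists, up to 4 members of every other list with the largest differences, and, for repeats, the 6 highest and 6 lowest families of at least 10 copies plus 12 chosen families. Other named genes, and the lists said to be added, were chosen after their values were seen. Promoters are from RefSeq, and gene positions and the Dnmt1 codon from GENCODE release M21. Python 3.11.15, numpy 2.4.6, pandas 2.3.3, scipy 1.17.1 and matplotlib 3.10.9 were used.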

Additional observations from a re-analysis of the deposited data

Results flagged for a closer look

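Several differences between 1KO+1CI and 1KO had opposite signs on different days, each with 1 library per line and day, and the difference between days was not tested. IAPEz-int had 0.45 at day 4 and −1.40 at day 0 (difference of the medians over copies). Gapdh had −3.63 at day 4 and 1.34 at day 0. Erdr1 had 1.98 at day 4 and −1.26 at day 2. Rab20 had −1.38 at day 4 and 1.02 at day 2. Mir7652 had 1.59 at day 4 and −1.55 at day 2, and Mascrna had 1.59 at day 4 and −1.63 at day 0, both from few reads.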

How the results depend on the processing

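Counts of features past 1 depended on the constant added to FPKM, since a smaller constant lets features with few reads pass. With 0.1 in place of 1, 396 genes were higher and 324 lower, 4188 copies were higher and 5280 lower, and the PrE median was 0.82. With 0.01 these values were 615, 534, 5315, 5999 and 0.93. With each library rescaled to a common sum (TPM), where the added 1 is smaller against the values, 195 genes were higher and 106 lower. Other list medians moved by over 1.5 times with 0.01 added: BMP from 0.20 to 0.52, lateral mesoderm from 0.28 to 0.62, parietal endoderm from 0.45 to 0.75, feeder genes from 0.59 to 1.02, neural genes from 0.09 to 0.37, cardiac and blood genes from 0.10 to 0.25 and 2-cell genes from −0.42 to −0.71. With a minimum of 1 FPKM the hypoxia median went from −0.34 to −0.52 and that of trophoblast genes from 0.27 to 0.16, and with TPM those of proliferation genes and oxidative phosphorylation went from −0.13 to −0.08 and from −0.12 to −0.07. The medians of the epiblast, PS and pluripotency lists and of IAPEz-int, and the gene counts with a minimum of 1 FPKM or median-ratio scaling, moved by less than the limits set (0.1 for a median, 1.5 times for a count). Rescaling moved the median of all genes by at most 0.05. Of 338 alternative values of named genes 335 kept their sign, as did 260 of 270 for lists and 115 of 115 for families, and each one that changed sign lay within 0.1 of zero as reported. Mean and median over members differed in sign for the epigenetic (0.23 and −0.09), nascent mesoderm (0.06 and −0.03) and retinoic acid and Hox lists (−0.0031 and 0.03). No paired analysis was possible because each group has 1 library. Without replicates, variation between cultures and between clones cannot be told apart from the effect of DNMT1CI.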

Other observations

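Across 10615 genes with at least 1 FPKM in every library, Pearson's r between the differences 1KO+1CI minus 1KO at days 2 and 4 was 0.14, and 0.13 without Dnmt1. Between days 0 and 4 it was 0.09, and between days 0 and 2 it was 0.25. These are correlations across genes, which are not independent replicates, of differences from separate libraries of the same 2 lines. Among the 72 protein-coding genes higher by at least 1 at day 4, 50 were also higher at day 2 (median 0.26) and 34 at day 0 (median −0.01), beside 53.5% and 47.6% of all genes.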
